A study of Mus musculus with 18 samples.

Results

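The genes described here are 10 regulators of G protein signalling of the mouse, Rgs1, Rgs2, Rgs3, Rgs4, Rgs10, Rgs12, Rgs14, Rgs16, Rgs17 and Rgs19. They were selected on the values of these same libraries, with earlier results known, so their values are given as a description and are not independent evidence of anything. They were found by the Ensembl identifier of each symbol among the 55401 genes of the endothelial table and by symbol among the 22612 genes of the EO771 table, and all 10 were present in both. Another 13 genes with an Rgs symbol were read beside them.

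The study sorted endothelial cells from wild-type female C57BL/6 mice as CD45-negative, CD31-high cells and split them by PNAd, the sugar epitope of high endothelium. PNAd-negative blood vessel endothelial cells (BECs) came from the mammary fat pad of mice without tumours (normal BECs, plotted as BEC normal) or from primary tumours (tumour BECs, plotted as BEC tumour), and PNAd-positive high endothelial cells (HECs) came from inguinal lymph nodes of mice without tumours (normal HECs, plotted as HEC normal) or from nodes whose tissue is labelled lymph node metastases (tumour HECs, plotted as HEC tumour). EO771, a mouse breast cancer line, was cultured with vehicle or with 12-HETE, an oxidised derivative of arachidonic acid formed by ALOX12. Each of the 6 groups had 3 libraries. The study describes its replicates as independent experiments, and how many animals were pooled in a library is not given in the sources used here. HECs and BECs were taken from different organs, so cell type and organ cannot be told apart in any comparison of HECs with BECs. Normal and tumour BECs also came from different tissues, and fat pads, tumours and nodes were digested with different enzymes. In BECs and in the interaction, a tumour effect therefore cannot be told apart from tissue and digestion.

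The endothelial libraries summed to between 56410964 and 79357993 deposited units, with 1 fragment worth about 3.7 units, and the EO771 libraries to between 17294591 and 18624179 counts. Of 4 markers of high endothelium, Glycam1 and Chst4 were at 0 in all 6 BEC libraries and Fut7 was at most 28.4 normalised units there, while Glycam1 was between 39129 and 71579 in every HEC library. The 4th, Madcam1, was low throughout, at 14.1 to 27.4 in normal BECs and 0 in all normal HEC libraries. Some libraries stood apart. HEC normal replicate 2 had Chst4 at 4.07 against 19906 and 20205 in the other libraries of its group. Without that library, the log2 fold change between normal HECs and normal BECs was 3.03 for Rgs16, 1.87 for Rgs2, 1.35 for Rgs10 and 1.33 for Rgs17. HEC tumour replicate 3 had Fut7 at 14255 against 66477 and 65523, and BEC tumour replicate 3 had 68.3 CPM (counts scaled to a common library size) over 4 epithelial markers against 3.31 and 6.36. Between tumour HECs and tumour BECs, the log2 fold change of Rgs16 was 2.92 and that of Rgs2 was 1.65 without either of these libraries. EO771 cells gave 0.591 to 4.22 CPM over 7 endothelial markers.

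A G protein coupled receptor that binds its ligand loads the alpha subunit of a G protein with GTP, and the alpha and the beta-gamma subunits signal until that GTP is cleaved. RGS proteins bind the active alpha subunit and speed the cleavage, which shortens the signal. Of the members, Rgs1, Rgs2, Rgs3, Rgs4 and Rgs16 belong to the R4 subfamily, Rgs10, Rgs12 and Rgs14 to the R12 subfamily, and Rgs17 and Rgs19 to the RZ subfamily. Rgs1 is known from leukocytes, where it dampens chemokine responses, and Rgs5, a relative of Rgs4, is known as a marker of pericytes.

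Of the 10 members, 4 lie on chromosome 1 (GRCm38). Rgs16 spans chr1:153740349-153745468 on the plus strand in 5 exon blocks. Its exons overlap those of the antisense gene Gm28513 over 236 bp, or 10.1% of its exon length. Whether strand was used in the counting is not stated, so reads of Rgs16 and Gm28513 in that stretch cannot be told apart. Gm28513 itself had means of 3.55 to 25.3 normalised units in the endothelial groups. It was not matched by symbol in the EO771 table, so its level in EO771 cells is not known here. Rgs12 shares 467 bp, or 5.50% of its exon length, with the antisense gene Gm43791, which was at most 4.78 units in any endothelial library, and none of the other members shares exon bases with another annotated gene. Rgs4 lies at chr1:169741477-169747642 on the minus strand, 45.7 kb from Rgs5. Rgs2 (chr1:143999338-144004161) and Rgs1 (chr1:144242296-144249242) lie 238 kb apart, both on the minus strand.

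The RefSeq promoter table (GRCm38.p6) held 8 of the 10 members, without Rgs1 and Rgs14. The 250 bases before the start site are printed for Rgs16 and Rgs2, the members with the highest levels per kb in HECs, and for Rgs4, which was found in normal BECs and was at 0 in HECs. Capitals mark matches on either strand to 4 promoter motifs. These were the GC box, spelled GGGCGG, and the CCAAT box, spelled by its name. The others were the TATA box, for which TATAAA was searched, and the short core of the cAMP response element, for which TGACG was searched.
Rgs16, chr1:153740103-153740352, plus strand: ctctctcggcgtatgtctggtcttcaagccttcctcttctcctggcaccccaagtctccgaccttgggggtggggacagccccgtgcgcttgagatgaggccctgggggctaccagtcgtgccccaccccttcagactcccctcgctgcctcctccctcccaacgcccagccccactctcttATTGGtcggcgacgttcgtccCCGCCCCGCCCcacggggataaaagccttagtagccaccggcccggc
Rgs2, chr1:144004150-144004399, minus strand: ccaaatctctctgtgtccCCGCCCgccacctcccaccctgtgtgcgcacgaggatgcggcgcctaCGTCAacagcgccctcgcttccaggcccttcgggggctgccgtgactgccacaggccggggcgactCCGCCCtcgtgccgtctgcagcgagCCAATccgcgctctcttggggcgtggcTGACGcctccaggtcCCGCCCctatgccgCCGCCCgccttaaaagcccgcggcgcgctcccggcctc
Rgs4, chr1:169747643-169747892, minus strand: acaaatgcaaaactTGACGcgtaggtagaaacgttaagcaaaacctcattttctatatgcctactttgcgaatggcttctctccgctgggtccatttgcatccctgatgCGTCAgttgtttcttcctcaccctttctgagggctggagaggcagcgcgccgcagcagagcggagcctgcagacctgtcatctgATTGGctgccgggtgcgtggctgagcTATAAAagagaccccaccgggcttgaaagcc

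The Rgs16 stretch held 2 GC boxes in 1 run of capitals and 1 CCAAT box. That of Rgs2 held 4 GC boxes, 1 CCAAT box and 2 cAMP cores. That of Rgs4 held 0 GC boxes, 1 TATA box that begins 31 bases before the start site, 1 CCAAT box and 2 cAMP cores. GC content was 66.4% for Rgs16, 72.4% for Rgs2 and 53.6% for Rgs4. Among all 32851 promoters of this length, 32.7% held a GC box, 33.8% a CCAAT box, 12.4% a TATA box and 17.8% a cAMP core, and of the 12 promoters listed for the 8 members a GC box was found in 9, a CCAAT box in 3, a cAMP core in 3 and a TATA box in 3. An AP-1 site (TGACTCA, 4.46% of all promoters) was found in 2 of the 12. A STAT site (TTCNNNGAA, 7.02%), an interferon response core (GAAANNGAA, 7.13%) and an E-box (CACGTG, 6.02%) were also searched, and the 3 printed stretches held none of these letters. A match describes letters and is not a binding site.

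Rgs16, a small R4 protein known to act on Gi and Gq subunits, stood about 8 times higher in HECs than in BECs. Its normalised values, which are library values divided by the library's size factor, were 1704, 1715 and 1706 in normal BECs and 13739, 14260 and 13967 in normal HECs. They were 2240, 2296 and 2257 in tumour BECs and 17162, 17181 and 17149 in tumour HECs. None of the 4 groups overlapped, and their order from high to low was tumour HECs, normal HECs, tumour BECs and normal BECs. Normal HECs exceeded normal BECs 8.19-fold (log2 3.03 ± 0.04, SE) and tumour HECs exceeded tumour BECs 7.58-fold (log2 2.92 ± 0.04). The tumour groups exceeded the normal groups by far less, 1.23-fold in HECs (log2 0.30, 95% interval 0.23 to 0.36) and 1.33-fold in BECs (log2 0.41, interval 0.33 to 0.49), both under the 2-fold threshold used for a call. The difference between these log2 changes was -0.11, with an interval from -0.22 to -0.01 and a DESeq2 adjusted p of 0.07.

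**Figure D1:**
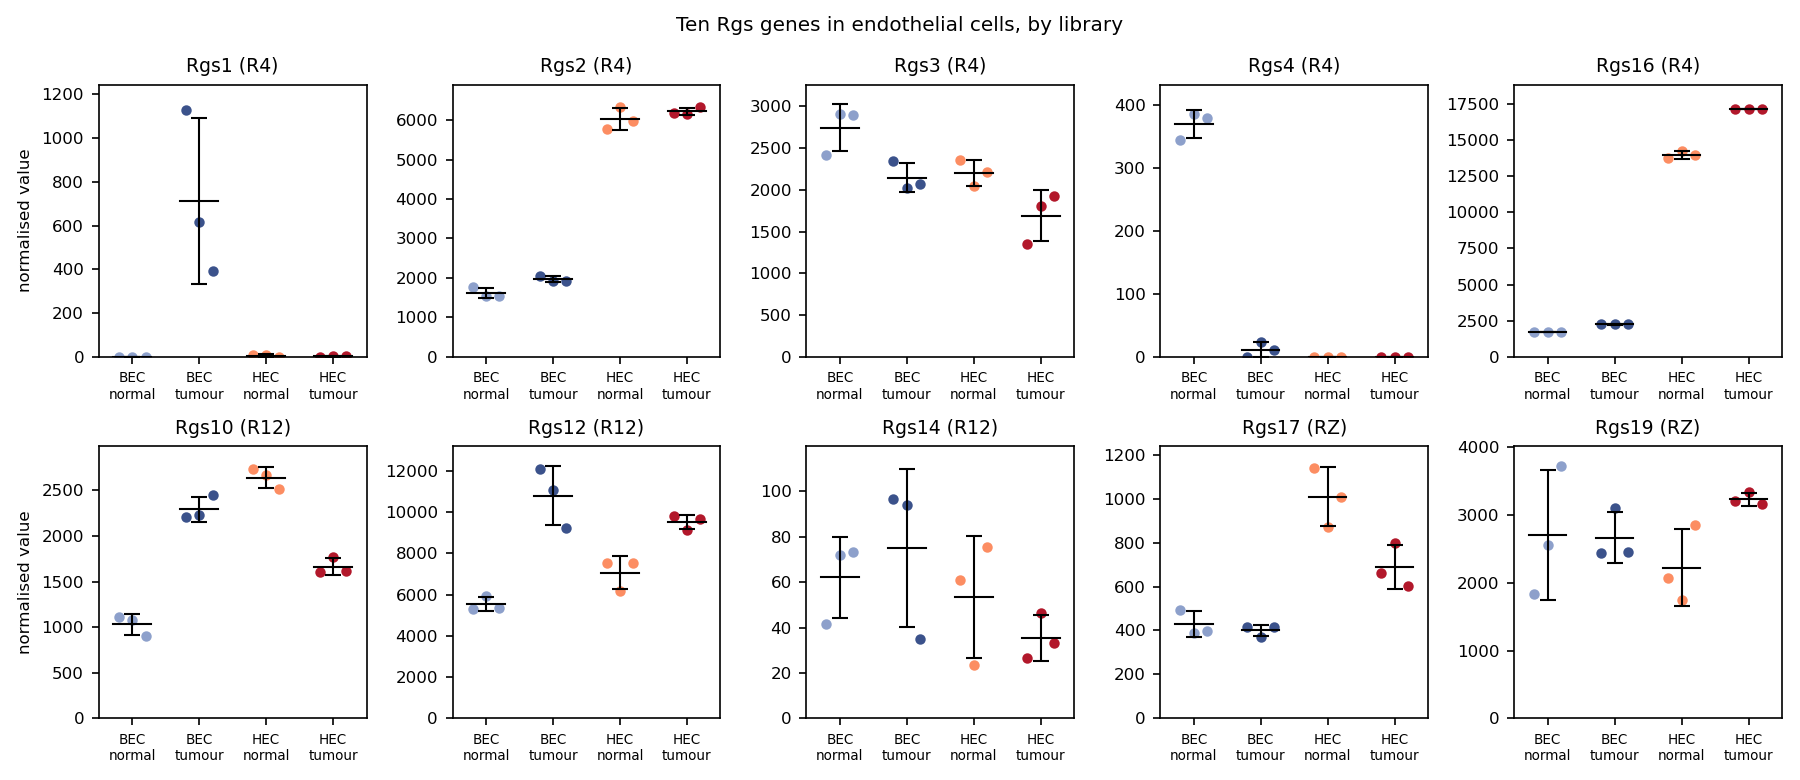
Normalised values (vertical axes, linear, a scale of its own in each panel) of the 10 Rgs genes in the 12 endothelial libraries; points are libraries, lines are means of 3 and bars are SD. Rgs16 and Rgs2 lie highest in both HEC groups, Rgs4 is near 0 outside normal BECs, and Rgs1 is near 0 outside tumour BECs, where its libraries run from 391 to 1129.

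Rgs2, an R4 protein known for its preference for Gq and its part in vessel tone, was split the same way at a smaller size. It was at 1767, 1533 and 1553 in normal BECs, 2056, 1912 and 1932 in tumour BECs, 5780, 6322 and 5983 in normal HECs and 6171, 6161 and 6331 in tumour HECs. Every HEC library lay above every BEC library, while the HEC groups overlapped each other. The HEC groups exceeded the BEC groups 3.72-fold without tumour (log2 1.90 ± 0.07) and 3.16-fold with tumour (log2 1.66 ± 0.07). Between tumour HECs and normal HECs the log2 change was 0.05, with an interval from -0.09 to 0.18.

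Rgs10 and Rgs17 were also higher in normal HECs than in normal BECs. Rgs10, a small R12 protein known from microglia and other immune cells, was at 1108, 1083 and 898 in normal BECs and at 2735, 2663 and 2510 in normal HECs (2.56-fold, log2 1.36 ± 0.10). Rgs17, known for acting on Gi and Gz, was at 496, 390 and 397 in normal BECs and at 1142, 873 and 1009 in normal HECs (2.36-fold, log2 1.24 ± 0.17), and was the called member closest to the fold threshold in this comparison. Neither pair of groups overlapped. Between the tumour groups neither was called, with log2 changes of 0.78 ± 0.17 for Rgs17 and -0.46 ± 0.10 for Rgs10, the opposite sign.

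Rgs4, an R4 protein known to act on Gi and Gq, had its highest level in normal BECs. It was at 344, 386 and 379 there and at 0 in all 6 HEC libraries. A value of 0 allows up to 3 fragments per library, about 11 deposited units, and against that limit Rgs4 was at least 32.7-fold lower in normal HECs. It was at 0, 23.7 and 10.5 in tumour BECs, where the mean was within the limit of tumour HECs, so no fold is given between the tumour groups. Rgs5 was at 262, 198 and 188 in normal BECs, 45.5, 84.6 and 23.5 in tumour BECs, 7.10, 0 and 0 in normal HECs and 0 in all tumour HEC libraries.

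The 8 markers of pericytes and smooth muscle were also highest in normal BECs as a sum, though not each of them. They summed to 707 to 712 CPM in normal BECs, 68.1 to 103 in tumour BECs, 31.5 to 33.9 in normal HECs and 18.1 to 21.3 in tumour HECs. Acta2, the smooth muscle actin, made up most of the sum in normal BECs, at 42470, 43370 and 43243 units there and 2334, 3437 and 4039 in tumour BECs. Pdgfrb was at 3400, 2988 and 3107 in normal BECs and 1154, 1809 and 1383 in tumour BECs. Other genes of the list had another order, with Des at means of 391 in normal BECs, 446 in tumour BECs and 559 in normal HECs. Kcnj8 and Abcc9 were at 0 in all normal BEC libraries. In tumour BECs Kcnj8 was at 0, 65.1 and 6.97 and Abcc9 at 3.71, 57.5 and 0, mostly from replicate 2. That library also had the highest Rgs4 and Rgs5 values of its group. As a sum, 4 fibroblast markers were highest in normal BECs too, at 138 to 146 CPM against 11.6 to 28.4 in tumour BECs. They summed to 16.0 to 18.0 CPM in normal HECs and 7.67 to 8.52 in tumour HECs. Of these markers, Dcn (means of 181 and 481) and Lum (0 and 23.7) were higher in tumour BECs than in normal BECs. The part of pericytes, smooth muscle cells or fibroblasts in the Rgs4 and Rgs5 values was not tested. In bulk RNA, fewer cells of a type and less RNA per cell cannot be told apart.

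Over the 10 members, 6 were called between normal HECs and normal BECs (adjusted p under 0.05 and a change of over 2-fold), Rgs1, Rgs2, Rgs10, Rgs16 and Rgs17 as higher and Rgs4 as lower in HECs. Of all 18511 genes tested, 17.2% were called higher and 15.2% lower. The call of Rgs1 rests on 8.11, 9.16 and 0 units against 0 in normal BECs, at most 3 fragments in a library, so no fold is given for it. Between tumour HECs and tumour BECs 4 members were called, Rgs2 and Rgs16 as higher and Rgs1 and Rgs4 as lower, beside 11.3% of all genes higher and 10.8% lower, and the call of Rgs4 rests on 0, 23.7 and 10.5 units in tumour BECs against 0 in tumour HECs. The median log2 change over the members was 0.79 without tumour and -0.26 with it, and over all genes it was 0.00 and 0.01.

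**Figure D2:**
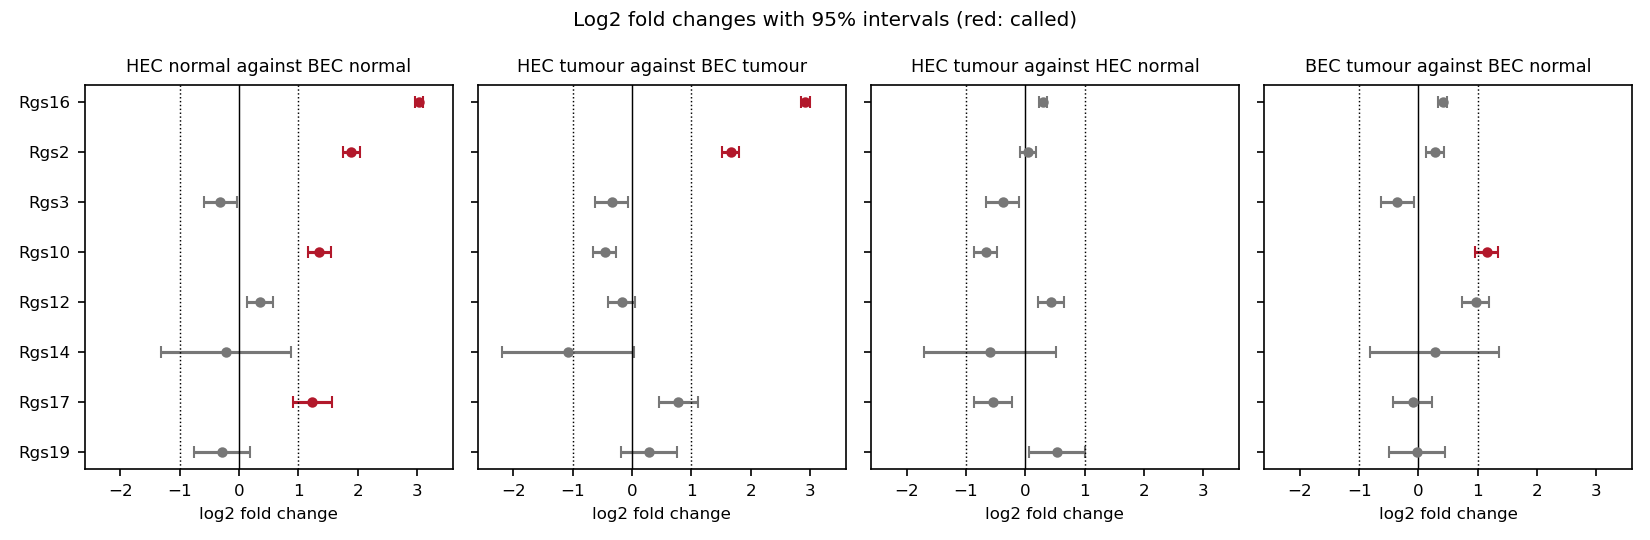
Log2 fold changes (horizontal axis) of Rgs genes in the 4 comparisons of endothelial groups, with 95% intervals; red points were called and dotted lines mark a 2-fold change. Rgs1 and Rgs4, which have groups at 0, are left out. Rgs16 lies near 3 in both comparisons of HECs with BECs, and no point is red between tumour HECs and normal HECs.

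In tumour BECs against normal BECs, Rgs1 and Rgs10 were higher and Rgs4 was lower. Rgs1 was at 0 in all 3 normal BEC libraries and at 1129, 616 and 391 in tumour BECs, which is at least 54.4-fold higher against the limit of 3 fragments per library. The tumour BEC libraries were unequal, with a coefficient of variation of 53.2% where counting alone gives 6.76%. In HECs the means were 5.76 without and 3.16 with tumour, at most 3 fragments in any library. The ratio of tumour BECs to tumour HECs was 225, with a 95% counting interval of 72.8 to 2183.

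Leukocyte markers were also highest in tumour BECs. The 6 myeloid markers summed to 2002, 1906 and 1490 CPM in BEC tumour replicates 1, 2 and 3, the order of the Rgs1 values, and to 107 to 128 CPM in normal BECs, 484 to 509 in normal HECs and 355 to 374 in tumour HECs. The 6 lymphocyte markers summed to 15.0, 13.0 and 8.67 CPM in tumour BECs and to at most 0.925 CPM in any other endothelial library. Ptprc, which encodes the CD45 antigen used to remove leukocytes in the sort, was at 855, 728 and 401 units in tumour BECs and at 8.24 to 24.7 in normal BECs. Cd3e, Cd3d and Ms4a1 were at 0 in normal BECs. In HECs the myeloid sum was mostly Cd68, at 32610 to 34239 units without and 22614 to 24096 with tumour, and the other 5 markers were at most 452 in any HEC library. The part of leukocyte RNA in the Rgs1 values was not tested.

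Rgs10 was at 2202, 2227 and 2449 in tumour BECs, above every normal BEC library (2.23-fold, log2 1.16 ± 0.10). In tumour HECs it was at 1607, 1766 and 1614, below every normal HEC library, a log2 change of -0.66 ± 0.10 that missed the fold threshold. None of the 4 groups overlapped, and the order from high to low was normal HECs, tumour BECs, tumour HECs and normal BECs. The interaction of cell type and tumour, which is the log2 change with tumour in HECs minus that in BECs, was -1.82 ± 0.14. All 6 myeloid markers were higher with tumour in BECs, and in HECs Cd68, which is nearly all of the sum there, was lower with tumour. Their part in the Rgs10 values was not tested.

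Rgs4 had a mean of 370 ± 22.5 (SD, n = 3) in normal BECs and of 11.4 ± 11.9 in tumour BECs, a log2 change of -5.02 ± 1.90 (DESeq2 adjusted p = 0.017). Without BEC normal replicate 1, 2 or 3, or without BEC tumour replicate 2 or 3, the adjusted p was between 0.0624 and 0.189, and the call was lost. All normal BEC libraries lay above all tumour BEC libraries.

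Rgs12, a large R12 scaffold that also binds Ras proteins, was at 5301, 5931 and 5367 in normal BECs and at 12072, 11054 and 9237 in tumour BECs, without overlap. Its log2 change of 0.96 ± 0.11 lay just under the fold threshold. It passed without BEC normal replicate 2 (1.01) and without BEC tumour replicate 3 (1.07), the library with the high epithelial sum, whose Krt8 was at 2235 against 35.2 and 179 in the other tumour BEC libraries. The part of epithelial RNA in the Rgs12 and Rgs14 values was not tested. In HECs it was at 7528, 6167 and 7513 without tumour and at 9793, 9155 and 9671 with tumour (log2 0.43 ± 0.11).

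Between tumour BECs and normal BECs, 3 members were called, Rgs1 and Rgs10 as higher and Rgs4 as lower, where 12.5% of all genes were called higher and 10.8% lower. Between tumour HECs and normal HECs, 0 members were called by DESeq2 or by edgeR, where 4.65% of all genes were called higher and 3.24% lower. In that comparison Rgs3, Rgs10, Rgs12, Rgs16 and Rgs17 passed the adjusted p alone. The median log2 change over the members was 0.28 in BECs and -0.19 in HECs, beside 0.01 and 0.02 over all genes. In the interaction, Rgs1 and Rgs10 were called on the lower side, where 12.2% of all genes were called lower and 11.2% higher. These comparisons share libraries with those of HECs and BECs.

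Rgs3, Rgs14 and Rgs19, like Rgs12, were called in no endothelial comparison. Rgs3, an R4 gene with long and short isoforms, was at 2419, 2908 and 2903 in normal BECs, 2343, 2021 and 2076 in tumour BECs, 2355, 2045 and 2216 in normal HECs and 1350, 1804 and 1925 in tumour HECs. Normal HECs and tumour BECs overlapped, and the log2 change was between -0.38 and -0.31 in the 4 comparisons of groups. Rgs14, an R12 scaffold known from neurons, was low, from 23.4 to 96.5 over the 12 libraries, and all neighbouring groups overlapped. Its log2 change was -1.08 between tumour HECs and tumour BECs, with an interval from -2.19 to 0.02, and it was called without BEC tumour replicate 3, at -1.43. Rgs19, known for binding Gi3, was at 1834, 2554 and 3722 in normal BECs, 2434, 3101 and 2458 in tumour BECs, 2075, 1739 and 2852 in normal HECs and 3205, 3338 and 3155 in tumour HECs. Groups next to each other in the order of means overlapped. Tumour HECs overlapped neither tumour BECs (log2 0.28, interval -0.19 to 0.75) nor normal HECs (log2 0.54, interval 0.07 to 1.01, DESeq2 adjusted p = 0.0657).

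Levels of different genes were compared per kb of exon. The length counted all annotated exons of a gene, 6.95 kb for Rgs1 and 10.8 kb for Rgs3. Which transcripts were expressed was not tested, so levels per kb and shares are too low where the expressed transcripts are shorter. On that scale Rgs19 was highest in normal BECs at 1212 ± 427 units per kb (SD, n = 3), ahead of Rgs16 at 730 ± 2.46, Rgs12 at 652 ± 40.8 and Rgs10 at 602 ± 66.9. In tumour BECs Rgs10 (1340 ± 79.4), Rgs12 (1271 ± 169) and Rgs19 (1195 ± 170) lay within their spread of each other. In normal HECs Rgs16 was at 5981 ± 112 units per kb, followed by Rgs2 at 1662 ± 75.4 and Rgs10 at 1541 ± 67.1, and in tumour HECs it was at 7338 ± 7.01.

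**Figure D3:**
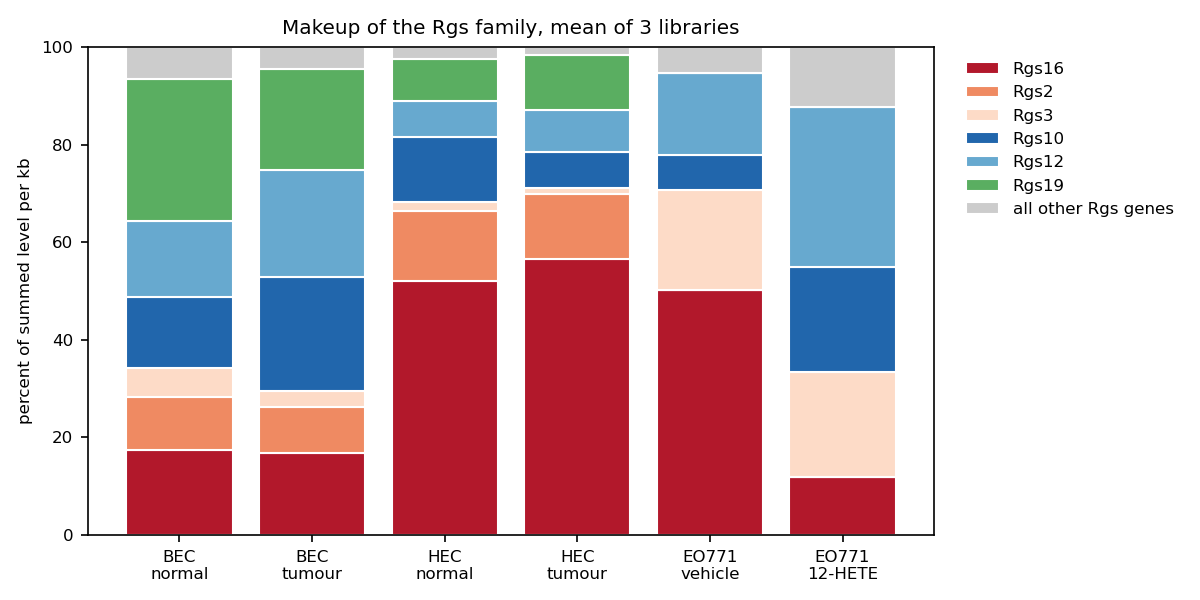
Share (vertical axis, percent) of each Rgs gene in the summed level per kb of exon of 20 Rgs genes in each of the 6 groups. The share of Rgs16 averaged 52.0% in normal HECs and 56.6% in tumour HECs, 17.6% and 16.8% in normal BECs and tumour BECs, and 50.4% and 12.0% in EO771 cells with vehicle and 12-HETE.

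Rgs16 took 52.0% ± 1.54 of the summed level per kb of 20 Rgs genes in normal HECs and 56.6% ± 0.328 in tumour HECs, against 17.6% ± 1.48 in normal BECs and 16.8% ± 0.63 in tumour BECs. The sum itself was 4169 units per kb in normal BECs, 5772 in tumour BECs, 11497 in normal HECs and 12967 in tumour HECs. By subfamily, R4 genes took 38.3%, 31.8%, 68.3% and 71.0% of it in that order, and R12 genes 30.4%, 45.5%, 20.8% and 16.2%.

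In EO771 cells, Rgs16 and Rgs3 were lower with 12-HETE than with vehicle. Rgs16 was at 226, 264 and 258 normalised counts with vehicle and at 14.4, 22.7 and 29.5 with 12-HETE, 11.2-fold lower (log2 -3.48 ± 0.26). Rgs3 was at 465, 595 and 350 with vehicle and at 185, 183 and 184 with 12-HETE, 2.56-fold lower (log2 -1.35 ± 0.21). For both genes every 12-HETE library lay below every vehicle library.

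**Figure D4:**
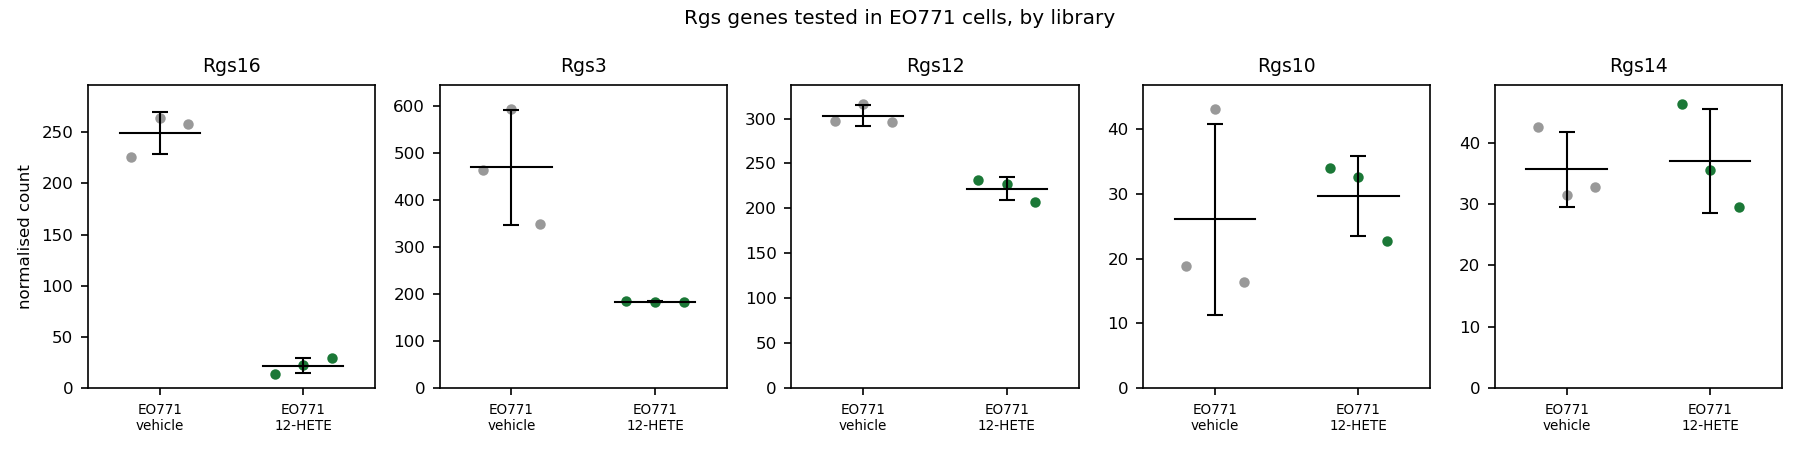
Normalised counts (vertical axes, linear, a scale of its own in each panel) of the Rgs genes tested in EO771 cells, in 3 vehicle and 3 12-HETE libraries; lines are means and bars are SD. The 12-HETE libraries of Rgs16 lie between 14.4 and 29.5 and its vehicle libraries between 226 and 264, while those of Rgs10 and Rgs14 overlap.

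Of the 10 members, 5 passed the filter on low counts in EO771 cells and 2 of these were called, both as lower, where 7.79% of all 11602 genes tested were called lower and 2.38% higher. Rgs12 was at 297, 316 and 296 with vehicle and at 232, 227 and 208 with 12-HETE, without overlap, a log2 change of -0.45 ± 0.14 that missed the fold threshold. Rgs10 had a log2 change of 0.18 with an interval from -0.75 to 1.11, and Rgs14 one of 0.06 with an interval from -0.62 to 0.74. Rgs1, Rgs2, Rgs4 and Rgs17 had at most 3 counts in any library, and Rgs19 had 0 counts in all 6, which allows up to 3 counts per library. The share of Rgs16 in the summed level per kb was 50.4% ± 4.78 with vehicle and 12.0% ± 4.75 with 12-HETE, where Rgs12, at 32.7%, was the highest. The 4 epithelial markers summed to 2964, 3511 and 2676 CPM with vehicle and to 1804, 1838 and 1788 CPM with 12-HETE, and the part of the makeup of the culture in the Rgs values was not tested.

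Of the 13 other Rgs genes, 5 were tested in the endothelial libraries and each was called in at least 1 of the 4 comparisons of groups, where 45.5% of all genes tested were called at least once. Of the 10 members, 6 were, the same ones that were called between normal HECs and normal BECs. Rgs20, an RZ gene like Rgs17, was at 158, 125 and 132 in normal BECs, 268, 179 and 239 in tumour BECs, 629, 530 and 542 in normal HECs and 412, 462 and 383 in tumour HECs. It was 4.09-fold higher in normal HECs than in normal BECs (log2 2.03 ± 0.19). Rgs9bp, a membrane anchor of Rgs9, was at 26.5, 4.71 and 22.3 in normal BECs and at 140, 115 and 129 in tumour BECs (log2 2.82 ± 0.48), and had means of 133 in normal HECs and 124 in tumour HECs. Rgs7bp, a related anchor, was at 16.8, 0 and 12.2 in normal BECs, 72.4, 50.8 and 41.0 in tumour BECs, 105, 49.9 and 122 in normal HECs and 17.3, 49.3 and 44.3 in tumour HECs. Its ratio of normal HECs to normal BECs was 9.59, with a counting interval of 4.46 to 22.2. Rgs9, an R7 gene, was at 33.5, 28.2 and 34.5 in normal BECs and at 78.8, 53.3 and 109 in tumour BECs (log2 1.32 ± 0.45), a call lost without BEC tumour replicate 3 (1.04, DESeq2 adjusted p = 0.0730). Rgs5 was called lower in tumour BECs than in normal BECs (log2 -2.08 ± 0.82), and the call was lost without any 1 of the 6 libraries except BEC tumour replicate 2 (DESeq2 adjusted p between 0.0929 and 0.146). In EO771 cells, Rgs9bp and Rgs22 were tested and 0 of these were called, with 0 at an unadjusted p under 0.05.

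G alpha subunits of all classes were read from a list of 16 genes, of which 14 were tested in the endothelial libraries. Gnal was called higher in normal HECs than in normal BECs, and Gnao1, Gnat1, Gnat2, Gnaz and Gnai1 lower, with a median log2 change of -0.70, beside 17.2% of all genes called higher and 15.2% lower and a median of 0.00. Gnao1, a subunit of the Gi/o class known from neurons, was at 1286, 1257 and 1372 in normal BECs, 97.4, 122 and 144 in tumour BECs, 0, 8.14 and 3.82 in normal HECs and 2.31, 0 and 8.85 in tumour HECs. Its log2 change between tumour BECs and normal BECs was -3.43 ± 0.27, and in that comparison 1 subunit was called higher and 4 lower, beside 12.5% and 10.8% of all genes. Gnat1 and Gnat2, the transducins known from the retina, were low and were the 2 called higher in tumour HECs than in normal HECs. Of all genes, 4.65% were called higher there. Gnat2 was at 8.11, 12.2 and 12.4 without tumour and 38.1, 28.6 and 35.4 with it. Gnat1 was at 0, 4.07 and 0 without tumour and at 38.1, 31.6 and 29.9 with it. The interaction of Gnat2 was 3.26 ± 0.59, and it was at 90.8, 83.5 and 103 in normal BECs and 39.9, 20.3 and 29.6 in tumour BECs. In EO771 cells 10 were tested and 0 were called by DESeq2 or edgeR.

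Of 17 G beta and gamma genes, 13 were tested in the endothelial libraries. Gnb4 was at 3785, 3935 and 3956 in normal BECs, 402, 525 and 406 in tumour BECs and 42.4 to 87.9 in the 6 HEC libraries. It was called lower in HECs without tumour (log2 -5.90 ± 0.22) and with it (-2.82 ± 0.23), and lower in tumour BECs than in normal BECs (-3.13 ± 0.20), where it was the only 1 of the list called. The median log2 change of the list was 0.06, 0.12 and -0.29 in these 3 comparisons, where 15.2%, 10.8% and 10.8% of all genes were called lower. Gng8 was called lower with tumour in HECs by DESeq2, at 13.2, 7.12 and 14.3 without and 0, 3.95 and 0 with tumour, about the limit of 3 fragments, and edgeR called 0 of the list there. That call was lost without HEC normal replicate 1 or 3 or HEC tumour replicate 1 or 3 (DESeq2 adjusted p between 0.0586 and 0.0845). In EO771 cells 12 were tested, and Gng3 alone was called, as higher, beside 2.38% of all genes. It was at 22.8, 17.2 and 15.4 counts with vehicle and 56.5, 55.2 and 74.8 with 12-HETE (log2 1.75 ± 0.35).

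Of 11 receptor kinases, arrestins and exchange factors with an RGS-like domain, 2 were called higher and 1 lower in normal HECs than in normal BECs. Of all genes, 17.2% were called higher and 15.2% lower there. In tumour HECs against tumour BECs 0 were called higher and 2 lower, beside 11.3% and 10.8% of all genes. The median log2 changes were -0.14 and -0.13. Grk4, a receptor kinase, was at 84.7, 67.1 and 51.8 in normal BECs and 211, 277 and 232 in normal HECs (log2 1.82 ± 0.25). Arhgef11, a guanine nucleotide exchange factor, was at 4608, 4778 and 4352 in tumour BECs and 2246, 2124 and 2245 in tumour HECs (log2 -1.05 ± 0.06). Grk6 was at 4918, 4944 and 4504 in normal BECs and 2423, 2446 and 2279 in tumour BECs (log2 -1.01 ± 0.07), just past the fold threshold, and the change was -0.99, -0.99 and -0.97 without BEC normal replicate 1, BEC normal replicate 2 and BEC tumour replicate 3. Grk5 was at 3102, 3040 and 3201 in normal BECs, 2486, 2765 and 2819 in tumour BECs, 2379, 2134 and 2230 in normal HECs and 4457, 4459 and 3978 in tumour HECs, with an interaction of 1.15 ± 0.11. Between the HEC groups, DESeq2 called Arrb1 higher and Grk3 lower with tumour, beside 4.65% and 3.24% of all genes, and edgeR called 0 of the list. Grk3 was at 16.2, 8.14 and 24.8 without and 0, 3.95 and 8.85 with tumour. Grk3 was not called without HEC normal replicate 3 (DESeq2 adjusted p = 0.0706) or HEC tumour replicate 1 (0.0723). Arrb1 was at 3113, 3591 and 3191 without and 5756, 2422 and 15784 with tumour, so that its groups overlapped. Its log2 change of 1.28 ± 0.53 was 0.31 without HEC tumour replicate 3, and the call was lost without any 1 of the 6 libraries except HEC tumour replicate 2 (DESeq2 adjusted p between 0.0588 and 0.48). In EO771 cells 8 were tested and 0 were called by DESeq2 or edgeR.

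Of 19 GoLoco proteins and effectors, 16 were tested in the endothelial libraries. In normal HECs against normal BECs 2 were called higher and 5 lower, beside 17.2% and 15.2% of all genes. In tumour HECs against tumour BECs 0 were called higher and 6 lower, beside 11.3% and 10.8%. The median log2 changes were -0.39 and -0.57. Adcy4, an adenylyl cyclase, was at 3721, 3901 and 3631 in normal BECs, 9306, 9257 and 9429 in tumour BECs, 9483, 9508 and 9686 in normal HECs and 8245, 8120 and 7506 in tumour HECs, with an interaction of -1.58 ± 0.07. Adcy3, another cyclase, was at 1172, 1220 and 915 in tumour BECs and 70.4, 43.4 and 36.5 in tumour HECs (log2 -4.47 ± 0.25). In EO771 cells Adcy7 and Adcy3 were called higher and Adcy1 lower of 12 tested, beside 2.38% and 7.79% of all genes. Adcy1 was at 1567, 1709 and 1559 with vehicle and 804, 797 and 796 with 12-HETE (log2 -1.01 ± 0.09, or -0.98 without EO771 vehicle replicate 2). The call of Adcy3 was lost without either of 2 vehicle or either of 2 12-HETE libraries (DESeq2 adjusted p between 0.0614 and 0.228).

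Of 37 receptors known from endothelium that couple to G proteins or arrestin, 33 were tested in the endothelial libraries. In normal HECs against normal BECs 9 were called higher and 12 lower, beside 17.2% and 15.2% of all genes tested, and the median log2 change of the list was -0.62. In tumour HECs against tumour BECs 7 were called higher and 9 lower, beside 11.3% and 10.8% of all genes, with a median of -0.30. In tumour BECs against normal BECs 9 and 10 were called, beside 12.5% and 10.8%, with a median of -0.42. The calls of Lpar1 and S1pr3 there were lost whichever library of these groups was left out (DESeq2 adjusted p between 0.103 and 0.256). In tumour HECs against normal HECs 2 and 3 were called, beside 4.65% and 3.24%, with a median of 0.05. Of those called lower, Ednra was lost without HEC normal replicate 1 (DESeq2 adjusted p = 0.0633). Ptafr was lost without HEC normal replicate 1 (0.245) or 3 (0.205). Ackr3, a chemokine scavenger that signals through arrestin, was at 10800, 11134 and 11227 in normal BECs, 243, 311 and 258 in tumour BECs, 884, 638 and 755 in normal HECs and 1756, 1613 and 1829 in tumour HECs, with an interaction of 6.54 ± 0.18. S1pr1, the Gi-coupled receptor for sphingosine 1-phosphate, was at 16348, 16198 and 16735 in tumour BECs and 34887, 35519 and 36266 in tumour HECs (log2 1.11 ± 0.05). In EO771 cells 12 were tested, and 2 were called higher and 1 lower, beside 2.38% and 7.79% of all genes. The gene called lower was the histamine receptor Hrh1, at 94.0, 202 and 98.3 with vehicle and 41.1, 46.3 and 28.5 with 12-HETE (log2 -1.77 ± 0.37).

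The genes most like Rgs16 over the 12 endothelial libraries, by Pearson's r of log2(normalised value + 1) among genes with a mean of at least 100, were Smurf1 (r = 0.997), Rgs2 (0.996) and Glycam1 (0.995). For Rgs1 they were Arhgap30 (0.977), Ncf1 (0.977) and Uhrf1 (0.960), and for Rgs4 they were Rpl39l (0.997), Stmn2 (0.993) and Crtap (0.986). The libraries fall into 4 groups, so these values mostly follow the group means. Ncf1, a subunit of the phagocyte oxidase, had means of 18.8, 723, 37.5 and 22.0 in normal BECs, tumour BECs, normal HECs and tumour HECs. Smurf1, a ubiquitin ligase, had means of 11035, 11982, 22298 and 23534, a much narrower range than that of Rgs16, since r takes no account of the size of a change.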

How the data were processed

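RNA was sequenced from 12 endothelial and 6 EO771 libraries. According to the methods, reads were mapped to GRCm38 with STAR and counted per gene with featureCounts, and the labels and methods name different library kits. The endothelial table deposited by the authors holds whole numbers that rise in steps of about 3.7 (3.665 to 3.715 by library) and are treated here as estimated counts. What made these steps is not given in the sources used here. The EO771 table deposited by the authors holds raw counts. Genes with a mean of at least 10 were tested with DESeq2 1.42.0 (R 4.3.3), with 1 fit of the 12 endothelial libraries and 1 of the 6 EO771 libraries. Wald tests were two-sided, p-values were adjusted by Benjamini-Hochberg over all genes tested, without DESeq2's own filters, and a call needed an adjusted p under 0.05 and over 2-fold. The fits were also run on simulated counts with a fixed dispersion and without the steps of the endothelial values. That run does not cover such steps, and its outcome is not used here.

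The members and lists were chosen with earlier results of these data known. All members were named, with every other Rgs gene called; each other list gave, per comparison, its called gene with the largest Wald statistic, and Rgs16 and the 2 members of widest range gave their 3 most correlated genes. Limits and counting intervals (95%) cover counting error only. Replicates of a group differed beyond sampling noise (chi-square per degree of freedom of at least 13.5 in the endothelial, 16.5 in the vehicle and 2.39 in the 12-HETE libraries). Same-numbered EO771 libraries deviated together in all 3 pairs (correlations 0.111 to 0.328), so their numbers were taken as pairs. The EO771 values given in the results still come from the fit without pairs. With the pairs as a replicate block, 1083 of all genes were called in EO771 cells instead of 1180. Alternatives were edgeR 4.0.16, TMM scaling, other filters and call rules, only the groups compared, values divided by their step, a replicate block and leaving out each library, and DESeq2's default filters, chosen after seeing the data. The level of 1 lymphocyte marker is not reported here.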

Additional observations from a re-analysis of the deposited data

Results flagged for a closer look

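For 5 Rgs genes the log2 change with tumour in HECs differed from that in BECs by the interaction test, beside 11.2% of all genes called higher and 12.2% lower in it. Rgs10, a member, had an interaction of -1.82, with values that were higher with tumour in BECs and lower with tumour in HECs. Rgs20 had one of -1.16, with means of 138 and 229 in BEC normal and BEC tumour and of 567 and 419 in HEC normal and HEC tumour. Rgs9bp had one of -2.91, with means of 17.8 and 128 in BECs and of 133 and 124 in HECs. Rgs7bp had one of -3.80, with means of 9.65 and 54.7 in BECs and of 92.6 and 37.0 in HECs, and its BEC normal level was within the limit of 3 fragments.

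Rgs1, the other member called in the interaction, was above the limit of 3 fragments per library in BEC tumour only, with a mean of 712 there, so no fitted interaction is given for it.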

How the results depend on the processing

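With an adjusted p alone and no fold threshold, the members called were 7 instead of 3 between BEC tumour and BEC normal, 7 instead of 4 between HEC tumour and BEC tumour, 5 instead of 0 between HEC tumour and HEC normal and 4 instead of 2 in the interaction. With a test against a log2 change of 1 they were 1 instead of 3 between BEC tumour and BEC normal and 1 instead of 2 in EO771 cells, where Rgs3 was lost. Over all genes, these rules gave 11747 and 3372 calls instead of 5995 between HEC normal and BEC normal, 10086 and 1706 instead of 4086 between HEC tumour and BEC tumour, 6570 and 179 instead of 1459 between HEC tumour and HEC normal, 9958 and 2096 instead of 4322 between BEC tumour and BEC normal, 8660 and 1792 instead of 4328 in the interaction and 5450 and 411 instead of 1180 in EO771 cells. Leaving out 1 library gave 5 to 6 members called between HEC normal and BEC normal, 3 to 4 between HEC tumour and BEC tumour, 0 to 0 between HEC tumour and HEC normal, 2 to 3 between BEC tumour and BEC normal, 2 to 3 in the interaction and 2 to 2 in EO771 cells.

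The log2 changes that turned in sign were all small and uncalled. That of Rgs19 between BEC tumour and BEC normal was 0.015 with edgeR and with TMM scaling, 0.024 with the replicate block and 0.020 with only the groups compared, against -0.02. Over the libraries left out in turn it ran from -0.24 to 0.27, and that of Rgs17 in the same comparison from -0.17 to 0.024. Between HEC normal and BEC normal that of Rgs19 ran from -0.50 to 0.0089 and that of Rgs14 from -0.55 to 0.14, and in the interaction that of Rgs3 ran from -0.13 to 0.11. In EO771 cells that of Rgs10 ran from -0.062 to 0.75 and that of Rgs14 from -0.13 to 0.20. The cause of these changes was not tested. As to the replicate block, same-numbered endothelial libraries shared little (correlations -0.03 to 0.126, 8 of 12 libraries closest to their own number), so the numbers were not taken as pairs there, and under the block Rgs4 between BEC tumour and BEC normal had a log2 change of -5.41 (DESeq2 adjusted p = 0.0982). In EO771 cells, where the numbers were taken as pairs from their correlations alone, the block changed the call of no member. The comparison of only the groups compared was not run for the interaction and EO771 cells. Depth limits Rgs1 and Rgs4, which had endothelial groups at 0, and the 5 members with too few counts to be tested in EO771 cells.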

Other observations

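In HEC tumour and in BEC normal, the 3 libraries agreed unusually closely for Rgs16. In HEC tumour its coefficient of variation was 0.0955%, where counting alone gives 1.53%, and 5 of 8960 genes with a mean of at least 1000 had a value as low. In BEC normal it was 0.337% against 4.71% from counting, with 10 of 8960 genes as low. In BEC tumour it was 1.26% against 3.79% from counting, with 253 genes as low. In HEC normal it was 1.87%, above the 1.62% from counting, with 929 genes as low. The median over these genes ran from 4.87% to 7.98% in the 4 groups.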
